A study of Homo sapiens with 40 samples.

Results

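The MAGE (melanoma antigen) genes share 1 protein domain and fall into a germline-restricted class and a widely expressed class. They were followed here by RNA sequencing in 786-0 cells, a clear cell renal cell carcinoma line. Genes were taken by symbol: a name starting with MAGE, no pseudogene, with MAGEA, MAGEB and MAGEC genes as the germline-restricted class. The rule found 35 of the 60664 genes in the deposited table. The germline class held 26 genes (12 MAGEA, 11 MAGEB and 3 MAGEC), all on chromosome X, and the widely expressed class held 9 (MAGED1, MAGED2, MAGED4, MAGED4B, MAGEE1, MAGEE2, MAGEF1, MAGEH1 and MAGEL2). MAGEF1 lies on chromosome 3 and MAGEL2 on chromosome 15, so 33 of the 35 genes are on X. A further 4 noncoding genes named after members and 3 pseudogenes were not counted as members.

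The cells were a form labelled SETD2 KO and a form labelled SETD2 WT, where SETD2 is the histone H3 lysine 36 methyltransferase. Each form was given 100 nM of the DNA methyltransferase inhibitor DAC (decitabine) plus 10 nM of the PARP inhibitor BMN (BMN673, or talazoparib), with DAC alone or with BMN alone, and was sampled at days 5, 16 and 26. Untreated control cells were sampled at day 0 only, so time in culture cannot be told apart from treatment in any comparison with control. Each of the 20 groups had 2 libraries, 40 in all. The labels describe 1 line of each form and do not say that the 2 libraries of a group came from separate cultures, so p-values measure only the spread between these libraries.

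MAGE proteins bind RING-type E3 ubiquitin ligases and can change their activity, position or choice of substrate. Genes of the germline class are normally silent outside testis and placenta, where DNA methylation of their promoters holds them off, and many tumours express them, which is why they are known as cancer-testis antigens. The widely expressed class is found in most tissues and includes partners of the DNA repair and endosomal sorting machinery.

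The promoters show what a DNA methyltransferase inhibitor can act on, namely the CG dinucleotides, which are given in capitals. RefSeq windows on GRCh38.p14, from 250 bases before to 50 bases after the start, matched 31 of the 35 members, and MAGEA1, MAGEA10, MAGEB17 and MAGEH1 had no match. The 23 germline windows held 1 to 21 CG with a median of 10, the 8 windows of the wide class held 9 to 26 with a median of 11, and the median over all 35116 windows in the table was 14. Windows are printed 5′ to 3′ for genes on which the results turn: MAGEA3 (chrX:152698544-152698843, plus strand), whose window is identical to that of MAGEA6 over 300 bases, MAGEA4 (chrX:151912224-151912523, plus strand), MAGEB2 (chrX:30215313-30215612, plus strand), MAGEC2 (chrX:142205241-142205540, minus strand) and, from the wide class, MAGED1 (chrX:51802826-51803125, plus strand).
MAGEA3: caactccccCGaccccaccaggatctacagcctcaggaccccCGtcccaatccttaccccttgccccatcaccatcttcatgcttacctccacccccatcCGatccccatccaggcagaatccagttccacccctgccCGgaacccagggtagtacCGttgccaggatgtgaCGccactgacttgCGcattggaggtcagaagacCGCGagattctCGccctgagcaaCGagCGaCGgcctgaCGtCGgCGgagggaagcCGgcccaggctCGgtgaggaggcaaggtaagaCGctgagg
MAGEA4: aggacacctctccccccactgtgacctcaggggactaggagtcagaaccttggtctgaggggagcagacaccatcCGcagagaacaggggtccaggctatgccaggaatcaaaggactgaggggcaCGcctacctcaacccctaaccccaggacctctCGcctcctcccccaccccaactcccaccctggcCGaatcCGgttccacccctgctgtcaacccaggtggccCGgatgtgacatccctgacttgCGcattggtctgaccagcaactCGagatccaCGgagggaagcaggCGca
MAGEB2: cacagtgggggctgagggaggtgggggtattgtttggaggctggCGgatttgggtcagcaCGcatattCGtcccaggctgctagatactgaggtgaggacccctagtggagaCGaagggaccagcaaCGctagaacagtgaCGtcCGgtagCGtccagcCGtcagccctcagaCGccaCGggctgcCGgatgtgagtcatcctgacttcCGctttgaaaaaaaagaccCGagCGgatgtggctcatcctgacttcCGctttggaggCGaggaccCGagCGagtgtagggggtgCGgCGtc
MAGEC2: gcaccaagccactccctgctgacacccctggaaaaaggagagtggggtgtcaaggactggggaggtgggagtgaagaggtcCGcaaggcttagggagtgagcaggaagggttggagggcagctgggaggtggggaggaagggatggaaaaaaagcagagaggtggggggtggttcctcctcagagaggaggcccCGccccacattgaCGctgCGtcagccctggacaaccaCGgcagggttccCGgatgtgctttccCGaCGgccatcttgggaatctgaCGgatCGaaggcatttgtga
MAGED1: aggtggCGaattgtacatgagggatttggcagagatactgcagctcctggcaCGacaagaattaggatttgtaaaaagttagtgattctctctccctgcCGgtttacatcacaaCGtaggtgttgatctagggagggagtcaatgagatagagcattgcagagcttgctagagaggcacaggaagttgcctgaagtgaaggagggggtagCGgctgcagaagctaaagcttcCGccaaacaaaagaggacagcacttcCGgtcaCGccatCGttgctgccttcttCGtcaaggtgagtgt
The MAGEA3 window held 19 CG, MAGEB2 held 21, and MAGEA4, MAGEC2 and MAGED1 held 10 each. The ETS-type letters CCGGAA, searched on both strands, stood in the windows of MAGEA3, MAGEA6 and MAGEB6 among 23 germline windows (13.0%), in MAGED1 and MAGEF1 among 8 of the wide class (25.0%), and in 17.2% of all windows. Only these letters were searched. CCGGAT, which stands in the printed windows of MAGEA4, MAGEB2 and MAGEC2, was not counted, so the shares do not cover ETS-type sites in general. No methylation was measured in these samples.

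Libraries held 17833960 to 22631101 counts. Levels below are CPM, that is counts scaled to library size with TMM factors, and "passed" means an adjusted p under 0.05 by edgeR's quasi-likelihood test, adjusted over the 22527 genes tested. Of the 8 markers of a renal carcinoma line, PAX8, VIM, EPAS1, CD70, KRT8, KRT18 and AXL had group means of 60.0 CPM or more, whereas CA9 did not exceed 2.47 CPM. PTPRC, CD3E, CDH5, ALB and INS, markers of blood, endothelium, liver and pancreas, did not exceed 0.5004 CPM as group means. PECAM1, another marker of endothelium, was higher, with group means of up to 2.70 CPM and 0 to 65 counts a library. Of the 7 listed markers of other cells that were tested, 4 were higher and 1 lower at day 5 of DAC in KO cells and 5 higher and 0 lower in WT cells, where 19.5% and 15.6% of all genes were higher and 16% and 12.2% lower. EPCAM, an epithelial adhesion gene, averaged 23.3 CPM under DAC and 6.70 in control in KO cells, and 8.76 CPM under DAC and 0.945 in control in WT cells. GFAP, a marker of astrocytes, averaged 0.974 CPM under DAC and 0.164 in control in KO cells, and 1.53 CPM under DAC and 0.101 in control in WT cells. The germ cell markers DDX4 and SYCP3 were the other 2 that rose in both forms, and SOX17, a marker of endoderm, rose in WT cells (0.759 CPM under DAC, 0 in control), while POU5F1, a pluripotency gene, fell in KO cells (25.95 CPM under DAC, 41.7 in control). Their part in the MAGE results was not tested. SETD2 RNA itself was 127 CPM in KO controls and 139 CPM in WT controls and did not pass (log2 -0.13 ± 0.07, adjusted p = 0.198), so the gene count does not check the genotype label. The 2 WT control libraries differed more than any other pair, at 19.6 times the sampling variance, against 1.65 to 17.1 in the other groups.

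Untreated cells of the 2 forms differed mainly in MAGEA3 and MAGEA6, near-identical genes whose proteins bind the ligase TRIM28 and direct it to AMPK. MAGEA3 had 0 counts in both KO control libraries, against 55 and 78 counts (2.77 and 4.04 CPM) in WT control libraries. MAGEA6 had 3 and 2 counts (0.162 and 0.110 CPM) in KO controls and 121 and 147 counts (6.10 and 7.61 CPM) in WT controls. The groups did not overlap for either gene, which 2 libraries a group reach easily. Against a floor of 3 counts a library, MAGEA3 was at least 20.8-fold lower in KO (adjusted p = 1.24e-10), and MAGEA6 was lower as well (log2 -5.59 ± 0.36, SE; adjusted p = 2.25e-14).

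Among the 15 germline genes that passed the expression filter, 4 were lower and 0 higher in KO controls, while 13.9% of all tested genes were lower and 13.4% higher. The other 2 were MAGEA12, with 0 counts in both KO libraries and 2 and 4 in WT libraries, and MAGEC2, another TRIM28 partner, with 0 in both KO libraries and 6 and 1 in WT libraries. Both rest on a few reads. Without KO control library 1 the adjusted p was 0.123 for MAGEA12 and 0.0891 for MAGEC2, and without KO control library 2 it was 0.118 for MAGEA12 and 0.0850 for MAGEC2. MAGEA12 was also lost without WT control library 2 (0.126) and MAGEC2 without WT control library 1 (0.344). The remaining 11 tested genes had at most 2 counts in any control library. MAGEA3 and MAGEA6 made up 94.6 and 96.6% of the germline MAGE counts of the WT control libraries.

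DAC raised germline MAGE genes in KO cells and in WT cells. Summed over the 26 genes, KO cells reached 151 and 150.1 CPM at day 5 of DAC, against 0.324 and 0.386 CPM in KO controls, and WT cells reached 163 and 162 CPM, against 9.37 and 12.1 CPM in WT controls. All 4 treated libraries stood above all 4 control libraries. In bulk RNA a larger share of cells with a transcript and more transcript per cell cannot be told apart.

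**Figure D1:**
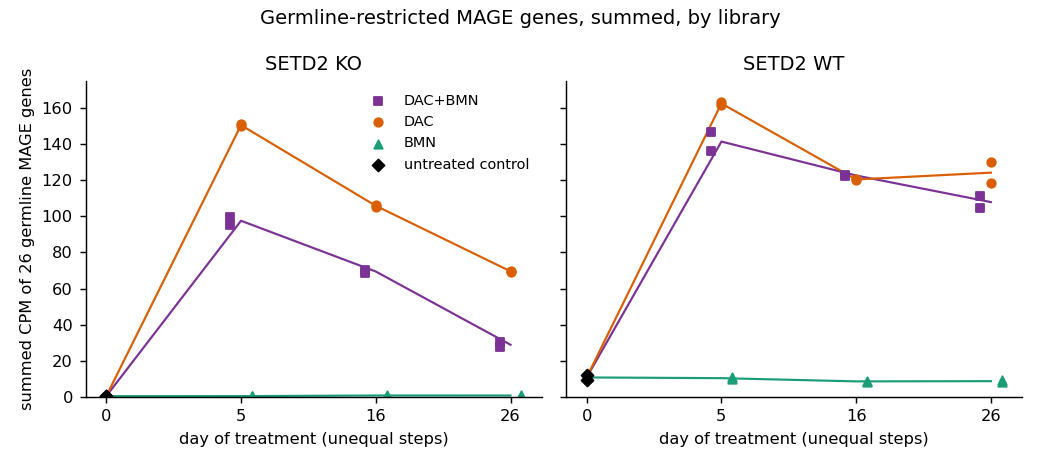
Summed CPM of the 26 germline MAGE genes (vertical axis) by day of treatment (horizontal axis, unequal steps) in KO cells (left) and WT cells (right). Points are libraries and lines join group means; KO cells under DAC fell to 69.9 and 69.2 CPM by day 26 and under DAC+BMN to 30.3 and 27.4 CPM, while BMN alone stayed near control in both panels.

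At day 5 of DAC, 15 of the 15 tested germline genes were higher than control in KO cells and 15 of 15 in WT cells, where 19.5% and 15.6% of all genes were higher. Most of these 15 passed the expression filter through the DAC libraries alone, so their count describes the response and does not support it. Per kilobase of transcript the highest germline level at day 5 of DAC in KO cells was that of MAGEB2 (14.6 CPM per kb), followed by MAGEA3 (11.2), and in WT cells that of MAGEA3 (13.03 CPM per kb), followed by MAGEC2 (10.8). MAGEB2 had 23.8 and 23.1 CPM in DAC-treated KO cells and 0 counts in KO controls, and 12.7 and 12.3 CPM in DAC-treated WT cells and 0 counts in WT controls. It was therefore at least 144-fold higher in KO cells and at least 81.6-fold higher in WT cells.

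MAGEA4, a MAGE-A antigen used as a target in T cell therapy, had 22.03 and 22.8 CPM in DAC-treated KO cells and 22.6 and 24.1 CPM in DAC-treated WT cells, with 0 counts in all 4 controls. Its bounds were at least 137-fold in KO and at least 152-fold in WT. MAGEC1 had 22.2 and 17.3 CPM in DAC-treated KO cells, against 0 counts in KO controls, which is at least 121-fold. MAGEC1 in DAC-treated WT cells was at 25.8 and 22.9 CPM, against 1 count over both WT controls, a ratio of 950.2-fold (95% counting interval 170.2 to 37569.5). MAGEC2 reached 14.2 and 17.4 CPM in KO cells, at least 96.6-fold above KO control, and 21.5 and 21.7 CPM in WT cells, 117-fold above WT control (log2 6.87 ± 0.27, adjusted p = 3.32e-18). In all 3 genes every treated library stood above every control library of its line. These genes passed the expression filter through libraries given DAC, so that order was largely set by the filter.

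MAGEA1, MAGEA11 and MAGEA12 rose as well. MAGEA1, the founding member of the family, had 9.61 and 10.8 CPM in DAC-treated KO cells and 2 counts over both KO controls, a ratio of 187-fold (95% counting interval 51.4 to 1551). In WT cells MAGEA1 had 11.2 and 10.2 CPM under DAC, and its ratio was 209-fold (95% counting interval 57.6 to 1734). MAGEA12 had 7.14 and 7.89 CPM in DAC-treated KO cells and 8.95 and 8.64 CPM in DAC-treated WT cells. MAGEA11, a coregulator of the androgen receptor, had 4.12 and 3.84 CPM and 5.59 and 4.36 CPM in the same groups, with 0 counts in all controls. The 6 genes MAGEA8, MAGEA9B, MAGEA10, MAGEB1, MAGEB6 and MAGEB10 did not exceed 3.35 CPM as a group mean in any of the 20 groups.

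MAGEA3 and MAGEA6 rose in both forms from unlike starting levels. MAGEA3 had 21.5 and 18.3 CPM in DAC-treated KO cells, at least 122-fold above KO control. In DAC-treated WT cells MAGEA3 had 24.00 and 22.2 CPM, 6.78-fold above WT control (log2 2.76 ± 0.19, adjusted p = 3.35e-13). MAGEA6 had 16.4 and 17.6 CPM in DAC-treated KO cells and rose by log2 6.90 ± 0.31 (adjusted p = 1.23e-18). MAGEA6 in DAC-treated WT cells had 17.7 and 21.96 CPM and rose by log2 1.53 ± 0.16 (adjusted p = 1.31e-09). The response to DAC, averaged over days, was larger in KO than in WT for these 2 of the 15 tested genes and smaller for 0, while 3.66% of all genes had a larger and 5.17% a smaller response. The other 13 had few or no counts in the controls of both forms. Their differences in response rest on the prior count and could hardly pass, so the count of 0 does not show equal responses. Under DAC itself 8 of the 15 were lower in KO than in WT and 1 higher, where 25.7% and 23.4% of all genes were. The difference in response was log2 4.99 ± 0.40 for MAGEA6 (adjusted p = 3.73e-11). For MAGEA3 the fitted difference depends on the prior count, since its KO controls are at 0 (adjusted p = 2.65e-08). About 34.9% of the 100-base windows of MAGEA3 transcripts also occur in MAGEA6, and reads that fit both equally well did not pass the authors' mapping quality limit, so they count for neither gene and adding the 2 genes does not bring them back. Added, the pair had 37.9 and 35.9 CPM at day 5 of DAC and 0.162 and 0.110 CPM in controls of KO cells (log2 8.01). In WT cells the pair had 41.7 and 44.2 CPM at day 5 of DAC and 8.87 and 11.7 CPM in controls (log2 2.07), and the response over the days was larger in KO by log2 5.63 (adjusted p = 2.51e-14).

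**Figure D2:**
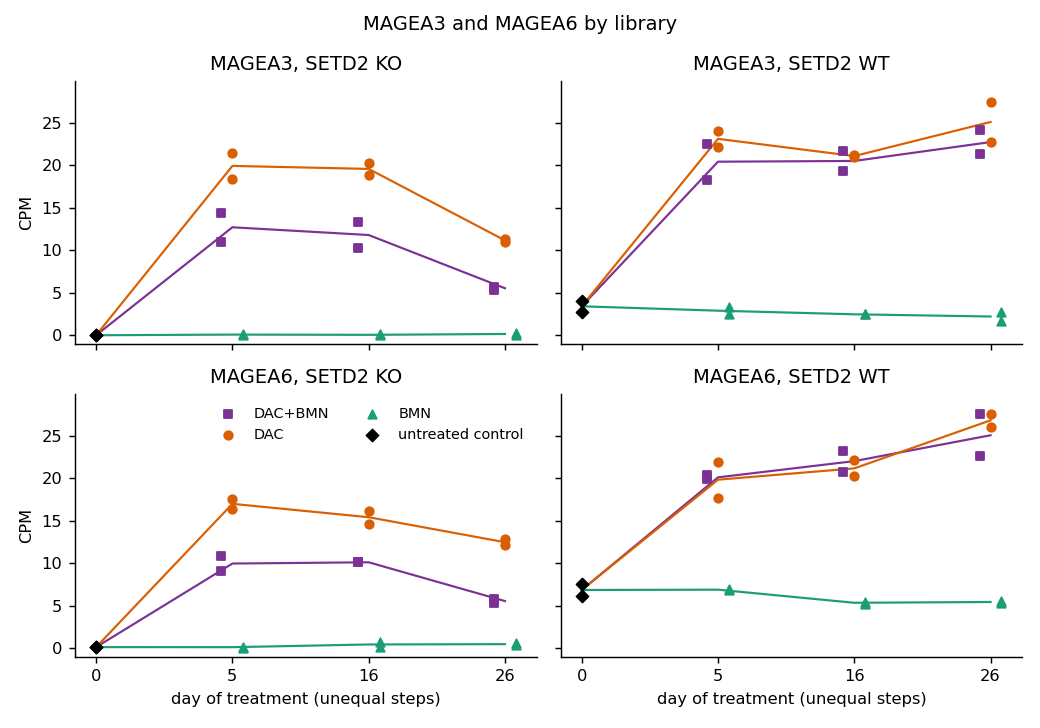
CPM of MAGEA3 (top) and MAGEA6 (bottom) by day (unequal steps) in KO cells (left) and WT cells (right), with points for libraries and lines through group means. KO controls stand at or near 0 and WT controls at 2.77 and 4.04 CPM for MAGEA3 and 6.10 and 7.61 CPM for MAGEA6, and both forms reach 16.4 to 24.0 CPM at day 5 of DAC.

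The day-matched comparison of DAC with BMN does not carry time in culture. Averaged over days, 15 of the 15 tested germline genes were higher under DAC than under BMN in KO cells and 15 of 15 in WT cells, where 28.5% and 23.3% of all genes were higher. Of the 15, 10 in KO cells and 6 in WT cells had 0 counts in every BMN library. Most of the 15 passed the expression filter through libraries given DAC, so this count too describes the response and does not support it. MAGEA6, with counts in every library, was 47.4-fold higher under DAC in KO cells (adjusted p = 3.61e-25) and 3.83-fold higher in WT cells (adjusted p = 1.02e-18).

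BMN alone left the germline genes near control. The summed level was 0.312 and 0.417 CPM at day 5, 1.10 and 0.348 at day 16 and 0.758 and 0.655 at day 26 in KO cells, against 0.324 and 0.386 CPM in KO controls. In WT cells it was 10.9 and 9.74, 8.80 and 8.28 and 9.31 and 8.01 CPM at the same days, against 9.37 and 12.1 CPM in WT controls. In edgeR's test no germline gene passed at day 5 or 16 in either form, and DESeq2 also called 0. At an unadjusted p below 0.05 there were 0 at day 5 and 1 at day 16 in KO cells, and 1 at day 5 and 2 at day 16 in WT cells. Among all genes 11.7% and 25.5% passed on those days in KO cells and 0.186% and 0.684% in WT cells. The count at day 16 was 1 without library 2 of BMN in KO cells and 1 without control library 1 in WT cells. At day 26 MAGEA6 rose in KO cells (log2 1.79 ± 0.64, adjusted p = 0.0281), with 12 and 8 counts under BMN and 3 and 2 in KO controls, where 15.6% of all genes were higher. At day 26 in WT cells MAGEA1 rose (adjusted p = 0.00443), with 7 and 10 counts under BMN and 0 and 2 in WT controls, where 12% of all genes were higher. MAGEA6 in KO cells did not pass without KO control library 1 (adjusted p = 0.0779), KO control library 2 (0.185) or KO BMN library 1 of day 26 (0.205), and MAGEA1 in WT cells did not pass without WT control library 1 (0.0811).

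**Figure D3:**
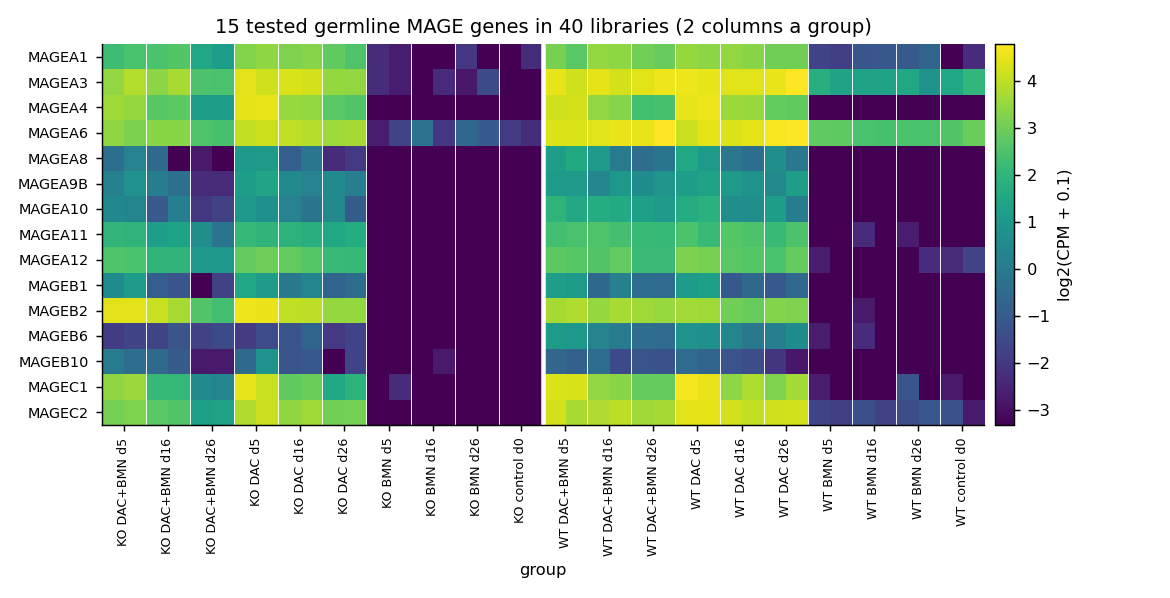
Level of the 15 tested germline MAGE genes (rows) in 40 libraries (2 columns a group, KO groups left and WT groups right), as log2(CPM + 0.1). Most entries of the DAC+BMN and DAC columns are filled in both forms. MAGEA8, MAGEA9B, MAGEB1 and MAGEB10 are at or near the floor in KO cells at day 26 of DAC+BMN. In the BMN and control columns MAGEA3 and MAGEA6 of WT cells are the highest rows.

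Between day 5 and day 26 of DAC the germline genes fell in KO cells, and fewer of them fell in WT cells. The labels give the dose and the day, and how DAC was dosed between those days is not given in the sources used here. The summed level in KO cells was 151 and 150.1 CPM at day 5, 106 and 105 at day 16 and 69.9 and 69.2 at day 26. In WT cells it was 163 and 162, 120.4 and 120.5 and 118 and 130.1 CPM. From day 5 to day 26, 0 of the 15 tested genes rose and 12 fell in KO cells, where 17.8% of all genes fell, with a median log2 of -0.94 beside 0.05 over all genes. In WT cells 1 rose and 5 fell, where 12.6% of all genes rose and 9.14% fell, with a median of -0.40. The WT count of 6 that passed was 3 without library 1 of day 5 in WT cells.

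MAGEA4 and MAGEC1 fell in both forms. MAGEA4 had 6.43 and 5.90 CPM at day 26 of DAC in KO cells, against 22.03 and 22.8 at day 5 (log2 -1.86 ± 0.12, adjusted p = 9.39e-12). In WT cells MAGEA4 had 7.24 and 6.99 CPM at day 26, against 22.6 and 24.1 at day 5 (log2 -1.72 ± 0.12, adjusted p = 6.11e-11). MAGEC1 had 2.83 and 3.67 CPM at day 26 and 22.2 and 17.3 at day 5 in KO cells, log2 -2.60 ± 0.22. In WT cells MAGEC1 had 9.29 and 12.7 CPM at day 26 and 25.8 and 22.9 at day 5, log2 -1.14 ± 0.19. The libraries of the 2 days did not overlap in these 4 comparisons, which 2 libraries a group reach easily and which adds little to the tests.

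MAGEA6 went opposite ways in the 2 forms between day 5 and day 26 of DAC. MAGEA3 fell in KO cells, with 11.4 and 10.9 CPM at day 26 and 21.5 and 18.3 at day 5, while in WT cells it had 22.7 and 27.5 CPM at day 26 and 24.00 and 22.2 at day 5 and did not pass. MAGEA6 fell in KO cells, with 12.1 and 12.8 CPM at day 26 and 16.4 and 17.6 at day 5 (log2 -0.45 ± 0.15, adjusted p = 0.0184). It rose in WT cells, with 26.02 and 27.6 CPM at day 26 and 17.7 and 21.96 at day 5 (log2 0.43 ± 0.14, adjusted p = 0.0220). The fall in KO cells did not pass without library 2 of day 5 (adjusted p = 0.0821) or library 1 of day 26 (0.111). The rise in WT cells did not pass without library 1 of day 5 (0.340), library 1 of day 26 (0.0544) or library 2 of day 26 (0.131). The difference between the forms was log2 -0.88 ± 0.20 (adjusted p = 0.00310). The change with time was more negative in KO than in WT for 6 of the 15 tested genes and less negative for 0, where 7.79% of all genes were more negative. The 6 were MAGEA3, MAGEA6, MAGEA8, MAGEB2, MAGEC1 and MAGEC2, and their differences ran from -2.84 for MAGEA8 to -0.66 for MAGEB2 on the log2 scale. That count was 3 without library 2 of day 5 of DAC in WT cells or without library 1 of day 26 of DAC in KO cells.

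Adding BMN to DAC lowered the germline genes in KO cells. The summed level under DAC+BMN in KO cells was 95.4 and 99.7 CPM at day 5, against 151 and 150.1 under DAC. At day 16 it was 70.1 and 68.8 CPM under DAC+BMN and 106 and 105 under DAC. At day 26 it was 30.3 and 27.4 CPM under DAC+BMN and 69.9 and 69.2 under DAC. At each day both DAC+BMN libraries stood below both DAC libraries. In WT cells the summed level under DAC+BMN was 147 and 136, 122 and 123 and 104.4 and 111 CPM on the 3 days, against 163 and 162, 120.4 and 120.5 and 118 and 130.1 under DAC.

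Averaged over days, 12 of the 15 tested germline genes were lower under DAC+BMN than under DAC in KO cells and 0 higher, where 11.8% of all genes were lower. The median log2 change was -0.98, beside -2.84e-04 over all genes. In WT cells 4 were lower and 1 higher, where 12.8% of all genes were lower and 10.2% higher, with a median of -0.12. The WT count of 5 was 3 without library 1 of day 5, library 2 of day 16 or library 2 of day 26 of DAC. In KO cells the count that passed was 6 at day 5, 7 at day 16 and 12 at day 26, where 11.8%, 8.7% and 11.3% of all genes were lower.

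MAGEC2 had 8.52 and 9.32 CPM under DAC+BMN and 14.2 and 17.4 under DAC at day 5 in KO cells. At day 26 MAGEC2 in KO cells had 2.36 and 2.45 CPM under DAC+BMN and 8.18 and 8.50 under DAC. Over the 3 days MAGEC2 was 0.444 of its DAC level in KO cells (log2 -1.17 ± 0.10, adjusted p = 1.91e-10) and 0.755 of it in WT cells (log2 -0.40 ± 0.08, adjusted p = 3.53e-04). MAGEA4 was 0.476 of its DAC level in KO cells (log2 -1.07 ± 0.08, adjusted p = 1.12e-10) and 0.806 of it in WT cells. MAGEA1 was 0.492 of its DAC level in KO cells (log2 -1.02 ± 0.11, adjusted p = 2.27e-08) and 0.882 of it in WT cells, which did not pass (adjusted p = 0.222).

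MAGEA3 in KO cells had 5.71 and 5.35 CPM under DAC+BMN and 11.4 and 10.9 under DAC at day 26. Its change over the 3 days was log2 -0.80 ± 0.10 in KO cells (adjusted p = 3.36e-07) and log2 -0.12 ± 0.09 in WT cells (adjusted p = 0.401). The change of MAGEA6 was log2 -0.85 ± 0.09 in KO cells (adjusted p = 1.01e-08) and log2 -0.01 ± 0.08 in WT cells (adjusted p = 0.968). MAGEB2 went opposite ways. It was 0.754 of its DAC level in KO cells (log2 -0.41 ± 0.08, adjusted p = 3.64e-04) and 1.29-fold higher under DAC+BMN in WT cells (log2 0.37 ± 0.08, adjusted p = 9.42e-04). The 3 genes that did not pass in KO cells, MAGEA8, MAGEB6 and MAGEB10, averaged under 1 CPM over the 3 days of DAC+BMN. So did MAGEA9B, MAGEA10 and MAGEB1, which passed.

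**Figure D4:**
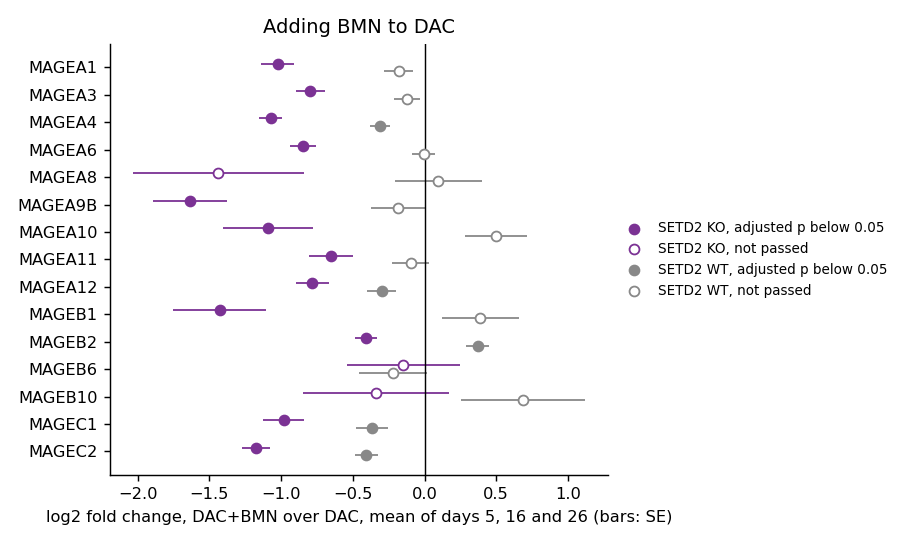
Log2 fold change of DAC+BMN over DAC, averaged over days 5, 16 and 26, for the 15 tested germline MAGE genes in KO cells (purple) and WT cells (grey), with bars for the SE and filled points where the adjusted p is below 0.05. All 15 KO points lie below 0, 12 of them filled, and the WT points lie on both sides of 0 with 5 filled.

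The effect of adding BMN was more negative in KO than in WT for 11 of the 15 tested genes and less negative for 0, where 7.87% of all genes were more negative and 8.48% less negative. The difference was log2 -0.76 ± 0.11 for MAGEA4 (adjusted p = 7.67e-06), -0.84 ± 0.12 for MAGEA6 (adjusted p = 3.30e-06) and -0.78 ± 0.11 for MAGEB2 (adjusted p = 1.15e-05). The median over the 15 genes was -0.78, beside 0.00162 over all genes. This comparison was added after the day-wise values had been seen.

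The germline genes also fell with time under the combination. Between day 5 and day 26 of DAC+BMN, 14 of the 15 tested genes fell in KO cells and 0 rose, where 21.1% of all genes fell, with a median log2 of -1.93. In WT cells 6 fell and 0 rose, where 17.9% of all genes fell, with a median of -0.50. MAGEB2 had 6.05 and 5.10 CPM at day 26 and 21.2 and 21.5 at day 5 in KO cells (log2 -1.93 ± 0.15, adjusted p = 2.76e-11). In WT cells MAGEB2 had 12.4 and 11.5 CPM at day 26 and 12.8 and 14.2 at day 5. Among the 15 genes 11 had a more negative change in KO than in WT, where 8.45% of all genes did.

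Even at day 26 of DAC+BMN the germline genes of KO cells stood above control. The summed level of 30.3 and 27.4 CPM compares with 0.324 and 0.386 CPM in KO controls, and 11 of the 15 tested genes were higher, where 20.4% of all genes were higher. Of the 11, MAGEA10 was lost without KO control library 1 (adjusted p = 0.152), KO control library 2 (0.173) or either treated library (0.0810 and 0.133). MAGEA3 was at 5.71 and 5.35 CPM, at least 33.8-fold above control, and MAGEB2 at 6.05 and 5.10 CPM, at least 34.1-fold. In WT cells at day 26 of DAC+BMN 15 of 15 were higher, where 22.4% of all genes were higher. Since most of these genes passed the expression filter through libraries given DAC, the counts in both forms describe the response and do not support it. MAGEA8, MAGEA9B, MAGEB1 and MAGEB10 did not pass in KO cells and had 0 to 4 counts a library there.

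Under matched treatment the KO form had lower levels of most of these genes. Averaged over days of DAC+BMN, 13 of the 15 tested genes were lower in KO than in WT and 0 higher, where 25.6% of all genes were lower, with a median log2 of -1.31. Under DAC alone 8 were lower and 1 higher, where 25.7% were lower and 23.4% higher, with a median of -0.50. The gene that was higher was MAGEB2, at log2 0.73 ± 0.08 (adjusted p = 1.40e-08), with 23.8 and 23.1 CPM in KO cells and 12.7 and 12.3 CPM in WT cells at day 5. MAGEB6 was lower in KO under DAC, at log2 -2.28 ± 0.30 (adjusted p = 2.45e-07), with 0.165 and 0.267 CPM in KO cells and 1.66 and 1.58 CPM in WT cells at day 5. MAGEC1 was lower in KO under DAC+BMN (log2 -1.55 ± 0.13) and under DAC (log2 -0.93 ± 0.12).

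The other 11 germline genes did not pass the expression filter. They were MAGEA2, MAGEA2B, MAGEA9, MAGEB3, MAGEB4, MAGEB5, MAGEB6B, MAGEB16, MAGEB17, MAGEB18 and MAGEC3, with 0 to 78 counts over all 40 libraries and at most 11 in any library. MAGEB5 had 0 counts in every library, which allows up to 3 counts each. MAGEA2 and MAGEA2B share 89.4% and 82.4% of their 100-base windows with each other, and MAGEA9 and MAGEA9B share 89.7% and 79.9%, so counts of these 4 genes are uncertain. MAGEA9 had 23 counts in all and MAGEA9B 723.

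Of the widely expressed genes, MAGEE1 in KO cells passed as higher with DAC, and the others that passed against control were lower. Per kilobase of transcript, MAGED1 and MAGED2 were the 2 highest of all 35 members in KO and WT controls and at day 5 of DAC in both forms. MAGED1, an adaptor in neurotrophin receptor signalling and a partner of the ligase PJA1, had 268 and 259 CPM at day 5 of DAC in KO cells, against 437 and 419 in KO controls (log2 -0.70 ± 0.06, adjusted p = 8.58e-11). In WT cells MAGED1 had 298 and 288 CPM under DAC, against 487 and 522 in WT controls (log2 -0.79 ± 0.06, adjusted p = 7.10e-12). MAGED2, which in kidney is needed for salt transporter expression, had 129.6 and 115 CPM under DAC in KO cells and 201 and 205 in KO controls, log2 -0.73 ± 0.07. MAGED2 in WT cells had 136 and 132 CPM under DAC and 189.9 and 230.4 in WT controls, log2 -0.65 ± 0.07. Treated and control libraries did not overlap for either gene, which 2 libraries a group reach easily.

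Of the 5 tested genes of this class, 4 fell at day 5 of DAC in KO cells and 3 in WT cells, where 16% and 12.2% of all genes fell, and 0 rose. MAGEF1, which with NSMCE1 directs breakdown of the iron-sulfur assembly factor MMS19, fell in KO cells (log2 -0.55 ± 0.11) and in WT cells (log2 -0.65 ± 0.10). MAGEH1 fell in KO cells only by the test at this day (log2 -0.43 ± 0.14, adjusted p = 0.0122), and the difference between the forms did not pass (adjusted p = 0.519 over the days). The MAGEH1 call was lost without KO control library 1 (adjusted p = 0.0696) or KO DAC library 1 of day 5 (0.0990). Averaged over days, 1 of the 5, MAGEE1, was higher under DAC than under BMN in KO cells and 1, MAGED2, lower, where 28.5% and 23% of all genes were. In WT cells 0 were higher and 3 lower, where 23.3% and 19.4% were. MAGEE1 in KO cells had 1.81 and 1.87 CPM under DAC and 1.46 and 0.991 under BMN at day 5. At day 26 MAGEE1 had 2.88 and 2.66 CPM under DAC and 1.09 and 1.01 under BMN in KO cells. The change over the days was log2 1.05 ± 0.17 in KO cells (adjusted p = 5.18e-06) and log2 0.22 ± 0.12 in WT cells (adjusted p = 0.146). The difference between the forms in its response to DAC against control did not pass (log2 0.44 ± 0.29, adjusted p = 0.417). At day 26 of DAC MAGEE1 was higher than KO control (log2 0.73 ± 0.28, adjusted p = 0.0299), a call lost without KO control library 1 (adjusted p = 0.484) or either DAC library of that day (0.129 and 0.0938). MAGEE1 was lower under DAC+BMN than under DAC in KO cells (log2 -0.55 ± 0.17, adjusted p = 0.0141). MAGED1 and MAGED2 rose between day 5 and day 26 of DAC, MAGED1 by log2 0.38 ± 0.06 in KO cells and 0.39 ± 0.06 in WT cells. The rise of MAGED2 did not pass in KO cells without library 2 of day 5 (adjusted p = 0.456), library 1 of day 26 (0.0564) or library 2 of day 26 (0.284), nor in WT cells without library 2 of day 5 (0.0976) or library 2 of day 26 (0.205).

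**Figure D5:**
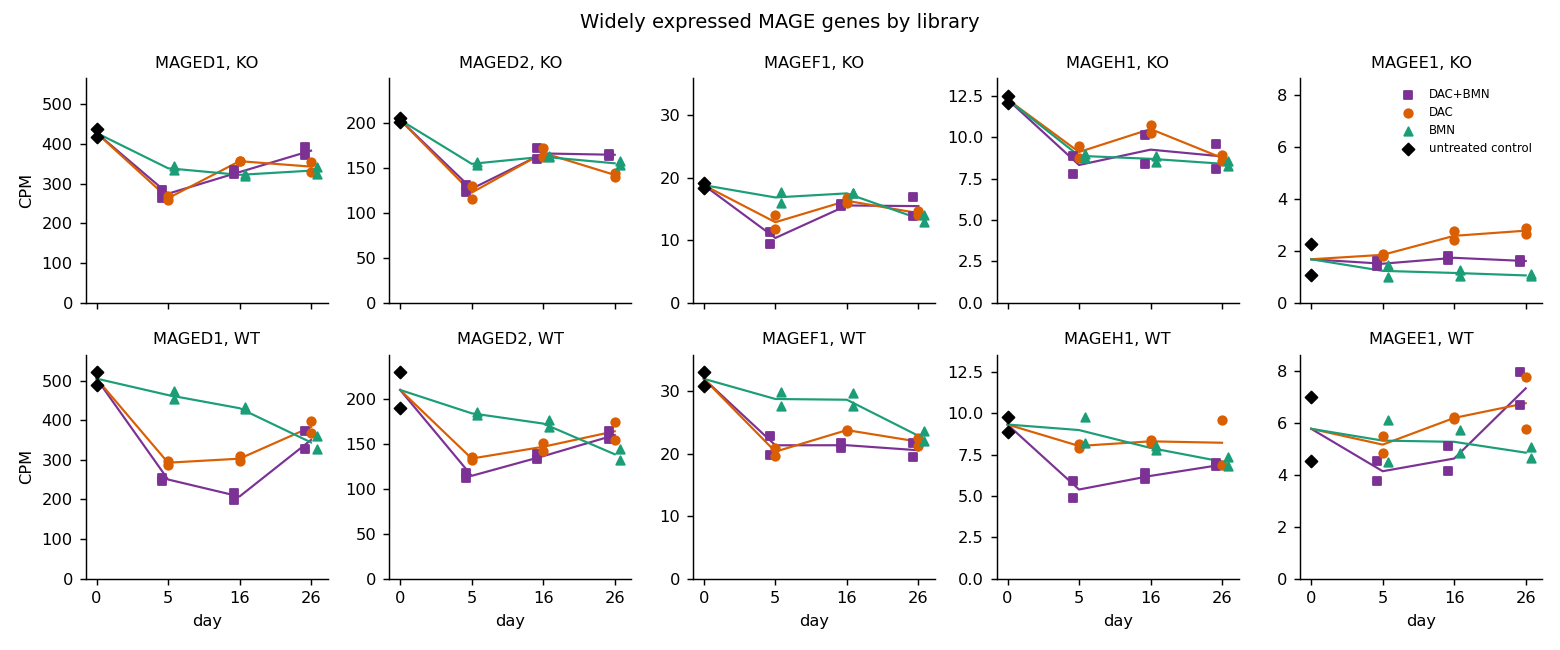
CPM of the 5 tested widely expressed MAGE genes (columns) by day (unequal steps) in KO cells (top) and WT cells (bottom), with points for libraries and lines through group means, and axes from 0. MAGED1 and MAGED2 stand below control at day 5 of DAC and DAC+BMN in both forms, and MAGEE1 stands lower in KO than in WT throughout. In WT cells under DAC+BMN, MAGED1 is lowest at day 16 (mean 208 CPM, against 250 at day 5).

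BMN alone went with lower levels of this class. In KO cells MAGED1, MAGED2 and MAGEH1 were lower than control on all 3 days, with MAGEF1 added at day 26, where 6.65%, 15.2% and 17.5% of all genes were lower at days 5, 16 and 26. The MAGEH1 call at day 5 in KO cells was lost without any 1 of the 4 libraries, at adjusted p = 0.0577 to 0.125. In WT cells 4 were lower at day 26, where 11% of all genes were lower, and edgeR's test called 0 at days 5 and 16. At an unadjusted p below 0.05 there were 1 at day 5 and 2 at day 16, and DESeq2 called 0 and 2 on those days. Without WT control library 1 edgeR called 2 at day 16. MAGEH1 in WT cells at day 26 was lost without WT control library 2 (adjusted p = 0.202) or BMN library 1 of day 26 (0.162). MAGED1 had 334 and 344 CPM at day 5 of BMN in KO cells, against 437 and 419 in KO controls, and 454 and 473 CPM in WT cells, against 487 and 522 in WT controls. Adding BMN to DAC lowered MAGED1 in WT cells (log2 -0.30 ± 0.04, adjusted p = 7.98e-08) and gave log2 0.03 ± 0.04 in KO cells (adjusted p = 0.559). That difference between the forms passed (log2 0.33 ± 0.05, adjusted p = 1.18e-05) and has the opposite sign to that of the germline genes.

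Between the forms, MAGEE1 and MAGEF1 were lower in KO with and without drug. In controls 3 of the 5 tested genes of the class were lower in KO and 1 higher, where 13.9% of all genes were lower and 13.4% higher. MAGEE1, a binding partner of alpha-dystrobrevin, had 1.08 and 2.26 CPM in KO controls and 4.54 and 6.99 CPM in WT controls (log2 -1.79 ± 0.25, adjusted p = 8.75e-07), and under DAC its difference was log2 -1.34 ± 0.14. MAGEF1 had 18.4 and 19.2 CPM in KO controls and 30.8 and 33.1 CPM in WT controls (log2 -0.77 ± 0.10, adjusted p = 3.65e-07). MAGEH1 was higher in KO controls, with 12.5 and 12.1 CPM in KO and 8.87 and 9.79 CPM in WT (log2 0.40 ± 0.13, adjusted p = 0.0247). MAGED1 was lower in KO controls, at the levels given above (log2 -0.24 ± 0.06, adjusted p = 0.00432), a call lost without KO control library 2 (adjusted p = 0.101) or WT control library 2 (0.168). The MAGEH1 call was lost without KO control library 1 (adjusted p = 0.121), KO control library 2 (0.0650) or WT control library 1 (0.193). MAGED2 gave log2 -0.05 ± 0.07 (adjusted p = 0.719). The 4 untested genes had few reads: MAGED4 14 and MAGED4B 71 counts in all, with 0 in each of the 20 KO libraries, MAGEE2 1 and MAGEL2 5. MAGED4 and MAGED4B share 98.1% and 95.6% of their windows with each other.

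The listed ligases and receptors that MAGE proteins work with had group means of 11.8 CPM or more, except LNX1, at 0.964 to 2.16 CPM. Of 7 tested partners and receptors 2 were higher in KO than WT controls and 0 lower, where 13.4% of all genes were higher and 13.9% lower. The 2 were TRIM27, the partner of MAGEL2 in endosomal sorting (log2 0.35 ± 0.06), and USP7 (log2 0.27 ± 0.07). At day 5 of DAC 1 of the 7 was higher and 2 lower in KO cells, and 1 higher and 1 lower in WT cells, where 19.5% and 16% of all genes were higher and lower in KO cells and 15.6% and 12.2% in WT cells. NSMCE1, a RING protein of the SMC5/6 complex, was lower in KO cells (11.8 CPM under DAC, 25.2 in control, log2 -1.09 ± 0.12) and in WT cells (17.7 CPM under DAC, 29.4 in control, log2 -0.73 ± 0.11). PJA1, the ligase that MAGED1 binds, was also lower in KO cells (log2 -0.36 ± 0.13, adjusted p = 0.0315). USP7, a deubiquitinase, was the gene that was higher, by log2 0.20 ± 0.07 in KO cells (adjusted p = 0.0296) and log2 0.19 ± 0.07 in WT cells (adjusted p = 0.0465). At day 26 of DAC the median log2 change of the 7 was -0.18 in KO cells, beside 0.11 over all genes. In WT cells it was -0.06, beside 0.03 over all genes. TRIM28, the partner of MAGEA3, MAGEA6 and MAGEC2, was among several listed partners that were lower at day 26 of DAC in KO cells. It had 241 CPM under DAC and 376 in control (log2 -0.64 ± 0.10, adjusted p = 2.93e-06).

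Of 10 tested targets and complex members on the list, 3 were higher in KO than WT controls and 0 lower, where 13.4% of all genes were higher and 13.9% lower. MMS19, the target of the MAGEF1 pair, was 1 of the 3 (149.6 CPM in KO, 113 in WT, log2 0.40 ± 0.08, adjusted p = 8.93e-05). At day 5 of DAC 1 of the 10 was higher and 3 lower in KO cells, where 19.5% and 16% of all genes were. In WT cells 0 were higher and 3 lower, where 15.6% and 12.2% were. At day 5 of DAC MMS19 was lower in KO cells (log2 -0.24 ± 0.08, adjusted p = 0.0144). NSMCE2, the SUMO ligase of the SMC5/6 complex, was lower at day 5 of DAC in KO cells (21.1 CPM under DAC, 29.6 in control, log2 -0.49 ± 0.11) and in WT cells (18.97 CPM under DAC, 29.2 in control, log2 -0.62 ± 0.11). SMC6, a subunit of the same complex, was higher at that day in KO cells (log2 0.53 ± 0.14, adjusted p = 0.00314). RNA levels do not measure ligase activity or protein breakdown.

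Of the 3 genes that carry the domain under other symbols, NDN and TRO were lower in KO than WT controls. NDN (necdin), an imprinted gene that restrains growth in neurons, had 0 counts in KO controls and 12.6 CPM in WT controls. At day 5 of DAC NDN stood at 3.14 CPM in KO cells (adjusted p = 2.11e-12). TRO (trophinin) had 0.247 CPM in KO controls and 6.19 CPM in WT controls (log2 -4.62 ± 0.35, adjusted p = 1.42e-12). NSMCE3 stayed between 15.2 and 23.8 CPM over all group means.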

How the data were processed

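RNA sequencing libraries were made from total RNA by a KAPA kit (RNA HyperPrep), as the labels give it. The deposited table holds raw, unscaled fragment counts of each gene. Per the file headers the counting tool was featureCounts 1.5.0-p1 on GRCh38 genes of Ensembl 104. It used strand setting 1, left out duplicates and secondary alignments, and required mapping quality 20 or more, so reads that map equally well to near-identical genes were lost. The submitters' processing notes name FastQC, Trimmomatic and Partek. All 40 columns were matched to samples through the labels, of which 1 passage spells the number of BMN673 differently.

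The filter filterByExpr (smallest count 10, smallest total 15, 20 groups) left 22527 genes. With edgeR 4.0.16 in R 4.3.3, all libraries entered 1 quasi-likelihood fit with TMM scaling and 1 mean for each group (20 residual degrees of freedom, biological coefficient of variation 0.0718). P-values were adjusted by Benjamini-Hochberg over all genes in each comparison, errors are SE, and comparisons averaged over days average 3 daily log2 differences. The fit was tested on simulated data. Folds against groups at 0 use a floor of 3 counts a library, and folds against 1 to 3 counts have an exact 95% interval, and both cover counting error only. Library totals of 17833960 to 22631101 put that floor at 0.133 to 0.171 CPM.

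All MAGE members were named. Per-library values are given for those with a group mean of at least 5 CPM, the rest by range and count, and listed partner genes and genes within 50 kb of a germline member by count or with values for those that passed, and some listed genes are not reported here. Members and lists were chosen with earlier results of these data known. The comparisons of the forms in the effect of adding BMN and in the change with time, and the combination against DAC at single days, were added after seeing the data. Replicate numbers did not pair libraries in 1 direction throughout. Over 190 pairs of groups the correlation of their deviations ran from -0.659 to 0.769, with 56 above 0.1, 53 below -0.1 and a median of 4.93e-04. Alternatives were DESeq2 1.42.0, its size factors, other filters, a replicate block, fits to the libraries compared, summed copies and each library left out. Promoter sequences are RefSeq windows of 300 bases on GRCh38.p14, and shared sequence was counted as 100-base windows of GENCODE transcripts.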

Additional observations from a re-analysis of the deposited data

Results flagged for a closer look

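Members are listed here because the test of the difference between KO and WT cells passed, and each value is a log2 difference of KO minus WT. In the response to DAC the genes were MAGEA6 (4.99) and MAGEA3 (8.57), and both values depend on the few or absent counts in KO controls. In the effect of adding BMN to DAC they were MAGED2 (0.21), MAGEC2 (-0.77), MAGEA10 (-1.59), MAGEA12 (-0.48), MAGEA6 (-0.84), MAGEA1 (-0.84), MAGEA3 (-0.68), MAGEC1 (-0.61), MAGED1 (0.33), MAGEB2 (-0.78), MAGEB1 (-1.82), MAGEA9B (-1.45) and MAGEA4 (-0.76). In the change between day 5 and day 26 of DAC they were MAGEC2 (-0.71), MAGEA8 (-2.84), MAGEA6 (-0.88), MAGEA3 (-0.96), MAGEC1 (-1.46) and MAGEB2 (-0.66). In the same change under DAC+BMN they were MAGEF1 (0.63), MAGEC2 (-1.54), MAGEA10 (-2.16), MAGEA12 (-1.07), MAGEA6 (-1.16), MAGEA11 (-1.45), MAGEA1 (-1.07), MAGEA3 (-1.35), MAGEC1 (-1.69), MAGEB2 (-1.76), MAGEB1 (-2.31) and MAGEA9B (-3.34). The 2 positive values of widely expressed genes in the effect of adding BMN, MAGED1 and MAGED2, stand against negative values for every germline gene listed there. These differences share control or DAC libraries with one another and are not independent. With 2 libraries a group no single library was tested as standing apart.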

How the results depend on the processing

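With 1 choice changed at a time, 532 counts of passing members stayed within 1.5 times their value and 39 did not, and 3276 values of single genes kept direction and call while 64 kept direction only. Fitting only the libraries compared, germline counts were 2 for KO against WT controls, 0 for BMN day 26 in WT and 3 for DAC day 26 against day 5 in WT. On that fit counts of the wide class were 2 for KO against WT controls, 0 for DAC day 26, 1 for BMN day 26 and 2 for DAC+BMN day 26 in WT, and 0 for DAC day 26 against day 5 in WT. The germline count for BMN day 26 in WT was 2 with near-identical copies summed or with DESeq2, and in KO 2 with no filter, with a filter of 30 counts in 2 libraries or with DESeq2. For BMN day 16 in KO it was 1 with that stricter filter or with copies summed. Summing MAGEA3 with MAGEA6 left 1 germline gene in the KO against WT response to DAC. The wide count for BMN day 16 in WT was 1 with DESeq2 size factors and 2 with no filter, the stricter filter or DESeq2. It was 1 for the KO against WT response to DAC with the stricter filter, and 1 for DAC+BMN against BMN in KO with no filter. For DAC day 26 against day 5 in KO it was 1 with DESeq2 size factors, no filter or DESeq2. MAGEA6 under DAC+BMN against DAC in WT, which did not pass, was log2 0.00552 with DESeq2 size factors, 0.00274 with the stricter filter, 0.00552 with DESeq2 and 0.00712 on the compared libraries. In each case the cause was not tested.

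With each library left out in turn, 3117 values of single genes kept direction and call and 217 kept direction only. Germline counts ran from 2 to 3 for KO against WT controls, 0 to 1 for BMN day 16 and 1 to 2 for BMN day 26 in WT, 0 to 1 for BMN day 16 and for BMN day 26 in KO, 3 to 6 for DAC+BMN against DAC in WT and 3 to 5 for DAC day 26 against day 5 in WT. Counts of the wide class ran from 2 to 3 for KO against WT controls, 0 to 2 for BMN day 16 in WT, 2 to 3 for DAC+BMN day 16 in KO, and 1 to 2 for DAC+BMN against BMN in KO and for DAC day 26 against day 5 in both forms. Of values that did not pass, MAGED2 for KO against WT controls ran from -0.18 to 0.13, MAGEE1 at day 5 of DAC from -0.30 to 0.74 in KO and from -0.50 to 0.17 in WT, MAGED1 for KO against WT under DAC from -0.0345 to 0.0100, and MAGEA6 for DAC+BMN against DAC in WT from -0.0506 to 0.0534 on the log2 scale. With the replicate number as a block, germline counts were 4 for KO against WT controls, 12 for DAC+BMN against DAC in KO and 5 in WT. Block fits moved no count past 1.5 times except that for DAC+BMN against DAC at day 5 in WT, which was 0 with the block and 1 without. Libraries labelled with 1 number deviated together in some pairs of groups and in opposite ways in others, with 56 of 190 correlations above 0.1 and 53 below -0.1. A block by number cannot capture deviations that change sign between groups, and their cause was not tested. Members with a few counts in controls are limited by depth, and 2 libraries a group limit every test.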

Other observations

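Genes beside the germline members on chromosome X also responded to DAC. Of 16 tested genes within 50 kb of a member, 9 were higher and 0 lower at day 5 of DAC in KO cells, and 8 higher and 1 lower in WT cells, where 19.5% and 15.6% of all genes were higher. Genes such as GABRE and MAGEA4-AS1, with 0 counts in controls, passed the expression filter only through treated libraries, so their direction was set by that filter. The noncoding genes MAGEA3-DT, MAGEA6-DT and MAGEA4-AS1 are 3 of those counted as higher in each form. CSAG1, a cancer-testis gene beside MAGEA12, had 5.26 CPM under DAC and 0.0270 in control in KO cells, and 5.52 CPM under DAC and 0.204 in control in WT cells. GABRE, a GABA receptor subunit gene, had 7.77 CPM under DAC in KO cells and 10.4 in WT cells, with 0 counts in controls of both. GABRA3, another subunit gene, was nearly absent in KO controls (0.0276 CPM) and present in WT controls (2.79 CPM; log2 -6.38 ± 0.53), as MAGEA3 and MAGEA6 were. The neighbours EOLA1, EOLA2 and TMEM185A were higher in KO controls, TMEM185A averaging 35.5 CPM, against 20.7 CPM in WT controls. Adding BMN to DAC lowered 6 of the 16 in KO cells and raised 0, where 11.8% of all genes were lower.

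The noncoding genes MAGEA3-DT and MAGEA6-DT start beside the members they are named after, on the opposite strand. MAGEA3-DT had 0 counts in KO controls and 14 and 12 in WT controls, and reached 0.659 and 1.76 CPM at day 5 of DAC in KO cells and 1.55 and 1.35 CPM in WT cells. MAGEA6-DT had 0 counts in KO controls and 2 and 5 in WT controls, and 1.65 and 1.28 CPM at day 5 of DAC in KO cells and 1.19 and 0.464 CPM in WT cells. MAGEA4-AS1, which overlaps MAGEA4 on the other strand, had 0 counts in all controls and 1.59 and 1.55 CPM at day 5 of DAC in KO cells and 0.828 and 0.882 CPM in WT cells. CTCFL (BORIS), a germline paralogue of CTCF that binds MAGE promoters, had 0 counts in all controls and 8.68 CPM at day 5 of DAC in KO cells and 11.1 CPM in WT cells. CTCFL was lower under DAC+BMN than DAC in KO cells (4.74 CPM under DAC+BMN, 9.85 under DAC; log2 -1.18 ± 0.10, adjusted p = 2.37e-09). Other markers of germ cells were at low levels and rose with DAC too. DDX4, a germ cell RNA helicase, averaged 0.297 CPM at day 5 of DAC in KO cells (adjusted p = 0.0152) and 0.630 CPM in WT cells (adjusted p = 0.00125), with 0 counts in all controls. SYCP3, of the meiotic synaptonemal complex, averaged 1.16 CPM under DAC and 0.0827 in control in KO cells (log2 3.73 ± 0.77, adjusted p = 2.14e-04). In WT cells SYCP3 averaged 1.60 CPM under DAC and 0.0518 in control (log2 4.80 ± 0.78, adjusted p = 1.17e-05).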
